A study of Arabidopsis thaliana with 6 samples.

Results

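Flowering time in Arabidopsis is set by a small network of transcription factors, and 10 of its genes were followed here in leaf RNA from transgenic lines and wild-type plants. They are the integrators FT, SOC1, FUL and AGL24, the MADS-box repressors SVP, FLC and MAF1, and the B-box genes CO, COL1 and COL2. The members were taken by locus identifier from the deposited table, which holds 21981 genes, and all 10 were found in it. The measured material was leaf of the Col-0 accession from 4-week-old plants, as 3 samples titled transgenic lines 1 to 3 and 3 samples titled wild-type replicates 1 to 3. The series title concerns endoreplication and the branching of trichomes, the hairs of the leaf surface. All plants were grown under 16 h of light and 8 h of dark at about 22 °C, a long-day regime. The protocol refers to drought treatment in the same words for all 6 samples, so both groups carry that description. The labels give neither the transgene, nor its promoter, nor whether a sample is 1 plant or a pool, and p-values therefore reflect only how far these samples spread, part of which may be technical.

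In long days, CO protein accumulates in the light and switches on FT in the companion cells of leaf veins. FT protein moves through the phloem to the shoot apex, where with FD it activates SOC1, FUL and the floral meristem identity genes. SVP and FLC, MADS-box proteins that bind the FT and SOC1 genes, hold this step back, and FLC itself is silenced by prolonged cold.

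Values are FPKM, fragment counts scaled for transcript length and library size, as the authors deposited them. Each sample is bulk leaf RNA, in which fewer cells of a type and less RNA per cell cannot be told apart. The number of reads behind each value is unknown, so no counting error can be given. Differences were tested with limma on log2(FPKM + 1) over the 17093 genes whose mean reached 1 FPKM. A call means a Benjamini-Hochberg adjusted p under 0.05. Of these genes 25.0% were called higher and 15.7% lower in the transgenic lines, and the groups did not overlap in 52.2%. Summed FPKM ran from 1261802 to 1278449 in the transgenic lines and from 970376 to 982620 in wild type. Rescaling each sample to a common sum (TPM) therefore moved the median log2 fold change of all tested genes to -0.31, against 0.03 as deposited. A small rise on the deposited scale can for this reason turn round after rescaling, and where it did so this is given beside the value.

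Of the members, 6 are MADS-box genes, and their coding sequences start alike. The first 60 coding bases are shown because they encode the start of the shared DNA-binding domain and show how far these transcripts can be told apart by sequence. They were read from the TAIR10.1 genome on the strand of each gene, 5′ to 3′, and capitals mark bases that at most 2 of the 6 genes carry at that position. The stretches lie at chr2:18810134-18810193 (SOC1, minus strand), chr5:24505954-24506013 (FUL, minus strand), chr4:12673586-12673645 (AGL24, minus strand), chr2:9580417-9580476 (SVP, plus strand), chr5:3179280-3179339 (FLC, minus strand) and chr1:28955679-28955738 (MAF1, plus strand).
SOC1: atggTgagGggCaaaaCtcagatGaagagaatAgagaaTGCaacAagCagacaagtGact
FUL: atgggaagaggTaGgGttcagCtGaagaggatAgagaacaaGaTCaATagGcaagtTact
AGL24: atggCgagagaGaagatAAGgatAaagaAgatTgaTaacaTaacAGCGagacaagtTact
SVP: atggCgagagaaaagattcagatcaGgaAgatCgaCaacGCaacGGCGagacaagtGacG
FLC: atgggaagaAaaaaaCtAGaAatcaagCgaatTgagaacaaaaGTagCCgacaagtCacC
MAF1: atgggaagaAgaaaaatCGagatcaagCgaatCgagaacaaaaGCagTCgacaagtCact
All 6 genes carried the same base at 25 of the 60 positions. Over the whole coding sequence FLC and MAF1 were identical at 67.7% of aligned positions and AGL24 and SVP at 62.5%. The longest run of bases shared by any 2 of the MADS-box members was 23, between FUL and AGL24.

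The 3 CONSTANS-family members are closer to each other. CO and COL1 lie next to each other on the minus strand of chromosome 5, with 3005 bases between them, and share 75.3% of aligned coding bases. COL2 lies on chromosome 3 and shares 71.9% with CO and 71.2% with COL1. Within coding sequence, a read can match both genes of a pair without a mismatch only if it is no longer than their longest identical run. These runs, of 25 to 28 bases, are shown for each pair. They lie at coding bases 277 to 302 of CO and 253 to 278 of COL1, at 925 to 949 of CO and 841 to 865 of COL2, and at 868 to 895 of COL1 and 844 to 871 of COL2.
CO and COL1: gcaaacccacttgctagacgccatca
CO and COL2: agggtcctgagatacagagagaaga
COL1 and COL2: gtcctgagatacagagagaagaagaaga

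Of the 10 members, 8 reached the mean needed for testing, and FT and CO did not. Among the 8, SOC1 was called higher, FUL, AGL24, SVP and FLC were called lower, and MAF1, COL1 and COL2 were not called. Over all tested genes 25.0% were called higher and 15.7% lower. FLC reached the testing mean only through wild type, so its call is given as a description and the counts are repeated without it. Over the other 7 members 1 rose and 3 fell, with a median log2 fold change of -0.05, against 0.03 for all tested genes. These shares depended on scaling. With quantile-normalized values 0 of 8 members were called higher and 3 lower, FLC not among them, against 19.1% and 20.2% of all genes. With TPM 0 were called higher and 5 lower, against 11.2% and 48.9% of all genes. Those 5 were FUL, AGL24, SVP, MAF1 and FLC, and FLC is again only a description. As deposited, the count of 4 lower was 2, FUL and SVP, without transgenic line 2 and also without wild-type replicate 3. Every line lay above every wild-type sample for FT and SOC1, as for 30.2% of all tested genes. Every line lay below every wild-type sample for FUL, AGL24, SVP, FLC and CO, as for 22.0% of them. FT and CO are not among the tested genes that these shares describe.

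**Figure D1:**
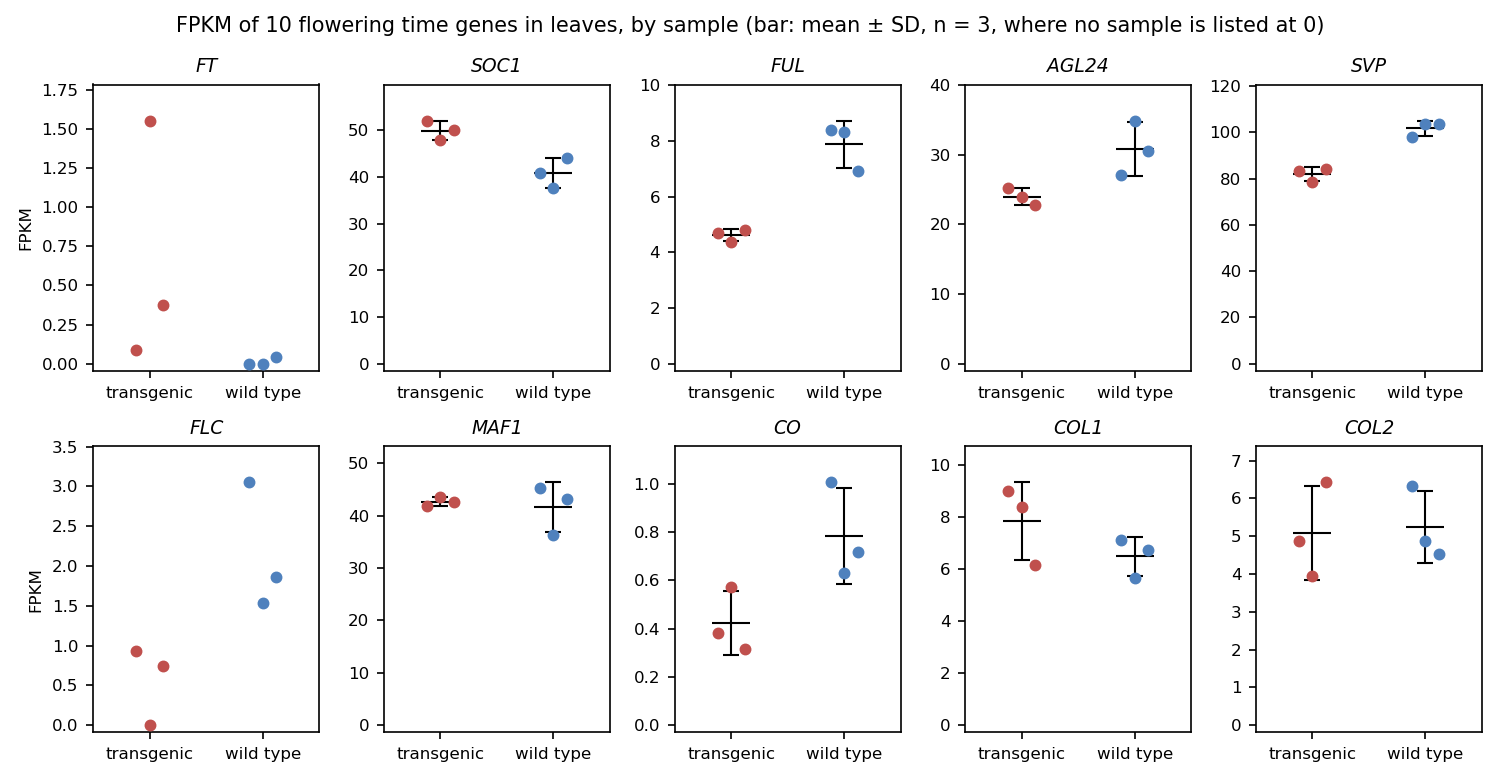
FPKM of each of the 10 genes in the 3 transgenic lines (red) and the 3 wild-type samples (blue), each panel with its own linear axis. Black bars give the mean ± SD of 3 samples and are left out for FT and FLC, which are listed at 0 in at least 1 sample. The transgenic points lie below all wild-type points for FUL, AGL24, SVP, FLC and CO and above them for FT and SOC1.

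FT (AT1G65480, chromosome 1, 24331373 to 24333999, plus strand), the florigen gene, was near the bottom of the scale in every sample. It had 0.0857, 1.55 and 0.375 FPKM in transgenic lines 1, 2 and 3, against 0, 0 and 0.0412 FPKM in wild-type replicates 1, 2 and 3. Line 2 stood apart from the other lines, and the groups did not overlap, although line 1 lay close to the highest wild-type value. With a mean under 1 FPKM, FT was not tested. An exact permutation test of its mean gave a two-sided p of 0.1, the smallest that 3 against 3 samples allow, and with no filter on low values its limma adjusted p was 0.15. No fold is given, since wild-type replicates 1 and 2 are listed at 0.

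SOC1 (AT2G45660, chromosome 2, 18807505 to 18811125, minus strand) integrates signals from FT, age and gibberellin and promotes flowering. It had 52.0, 47.8 and 49.9 FPKM in transgenic lines 1 to 3, against 40.7, 37.6 and 44.0 FPKM in wild-type replicates 1 to 3. Every transgenic value lay above every wild-type value, and the spread was small in both groups. SOC1 rose by 0.29 on the log2 scale (with SE 0.074 and limma adjusted p = 0.0129), to 49.9 ± 2.07 FPKM in the transgenic lines, against 40.8 ± 3.2 FPKM in wild type (SD, n = 3 each). This rise depended on scaling. After quantile normalization its log2 fold change was 0.11 (limma adjusted p = 0.262). After rescaling to TPM the values were 40.6, 37.9 and 39.2 in the transgenic lines, against 41.7, 38.7 and 44.8 in wild type, and the log2 fold change was -0.084 (limma adjusted p = 0.326). Relative to the median of all tested genes, SOC1 was higher by 0.26 as deposited and by 0.23 after rescaling.

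FUL (AT5G60910, chromosome 5, 24502434 to 24506269, minus strand), a promoter of flowering that acts with SOC1 and later in fruit, went the other way. It had 4.69, 4.37 and 4.81 FPKM in transgenic lines 1 to 3, against 8.39, 8.32 and 6.90 FPKM in wild-type replicates 1 to 3. The transgenic values were tightly grouped and all below wild type. FUL fell by 0.65 on the log2 scale (with SE 0.123 and limma adjusted p = 0.00236), and this call held under each of its 13 alternatives (adjusted p 0.000193 to 0.0133).

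AGL24 (AT4G24540, chromosome 4, 12670897 to 12674106, minus strand), a dosage-dependent promoter of flowering that activates SOC1, had 25.2, 23.9 and 22.7 FPKM in transgenic lines 1 to 3. In wild-type replicates 1 to 3 it had 27.0, 34.8 and 30.5 FPKM. The groups did not overlap, but wild-type replicate 1 lay close to line 1. AGL24 fell by 0.34 on the log2 scale (with SE 0.099 and limma adjusted p = 0.021). The call was lost without transgenic line 2 (adjusted p = 0.0502) or 3 (0.0647) and without wild-type replicate 2 (0.0754) or 3 (0.0551), with the same direction each time, and it held on the quantile-normalized and TPM scales.

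SVP (AT2G22540, chromosome 2, 9579647 to 9583901, plus strand), the close relative of AGL24 that represses FT and SOC1, was the most abundant member. It had 83.3, 78.4 and 84.0 FPKM in transgenic lines 1 to 3, against 98.0, 103 and 104 FPKM in wild-type replicates 1 to 3. Its coefficient of variation was 3.71% among the transgenic lines and 3.17% among wild-type samples, and the groups were well apart. SVP fell by 0.31 on the log2 scale (with SE 0.054 and limma adjusted p = 0.00157), and the call held under each of its 13 alternatives (adjusted p 9.63e-06 to 0.00835). Quantile normalization put its log2 fold change at -0.58 and TPM at -0.68.

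FLC (AT5G10140, chromosome 5, 3173382 to 3179448, minus strand), the repressor through which vernalization acts, was low in both groups. Col-0 is known to carry an inactive allele of FRIGIDA, the main activator of FLC. FLC had 0.938, 0 and 0.739 FPKM in transgenic lines 1 to 3, against 3.05, 1.54 and 1.86 FPKM in wild-type replicates 1 to 3. All transgenic values were under 1 FPKM and all wild-type values above it. It passed the filter at a mean of 1 FPKM only through wild type, at 2.15 FPKM, since the lines were below that level. Its log2(FPKM + 1) fold change was -1.04 (with SE 0.301 and limma adjusted p = 0.0215), and with no filter on low values the limma adjusted p was 0.03. The call was lost without transgenic line 2 (log2 fold change -0.75, adjusted p = 0.0502) and without wild-type replicate 1 (adjusted p = 0.0899) or 3 (0.0552). It was also lost with a pseudocount of 0.1 (adjusted p = 0.06) and after quantile normalization (0.0511). In RefSeq all 1180 exonic bases of FLC lie inside the locus of a non-coding RNA on the opposite strand, AT5G01675. The exons of that RNA were not compared with those of FLC. Strand use is not given in the sources used here, so where exons coincide, reads of the pair cannot be told apart.

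MAF1 (AT1G77080, chromosome 1, 28955483 to 28960234, plus strand), also called FLM, is the FLC relative that represses flowering with SVP at low ambient temperature. It had 41.8, 43.5 and 42.7 FPKM in transgenic lines 1 to 3, against 45.3, 36.3 and 43.2 FPKM in wild-type replicates 1 to 3. The lines lay inside the wild-type range. Its log2 fold change was 0.04 (limma adjusted p = 0.741), with a 95% interval of -0.15 to 0.24 on the deposited scale. After rescaling to TPM it was -0.33 (limma adjusted p = 0.00897), close to the shift of the median of all genes. RefSeq gives MAF1 11 transcripts, and the value per gene does not separate its splice forms.

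CO (AT5G15840, chromosome 5, 5170162 to 5173085, minus strand), the activator of FT in long days, had at most 1.01 FPKM in a sample and was not tested. It had 0.382, 0.574 and 0.315 FPKM in transgenic lines 1 to 3, against 1.01, 0.629 and 0.717 FPKM in wild-type replicates 1 to 3. The groups did not overlap, and line 2 lay close to wild-type replicate 2. An exact permutation test gave a two-sided p of 0.1, again the smallest possible, and with no filter the limma adjusted p was 0.089. The locus of the coding gene AT5G15843 on the opposite strand spans 1967 of the 2924 exonic bases of CO. The values of CO may therefore hold reads of that neighbour.

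COL1 (AT5G15850, chromosome 5, 5176091 to 5177897, minus strand), the tandem neighbour of CO, had 8.98, 8.38 and 6.17 FPKM in transgenic lines 1 to 3, against 7.10, 5.65 and 6.72 FPKM in wild-type replicates 1 to 3. The groups overlapped through line 3. Its log2 fold change was 0.23 (limma adjusted p = 0.267, 95% interval -0.12 to 0.58), and -0.10 after rescaling to TPM. COL2 (AT3G02380, chromosome 3, 487069 to 489467, minus strand), a close relative of CO, had 4.88, 3.94 and 6.42 FPKM in the lines, against 6.33, 4.87 and 4.54 FPKM in wild type. The wild-type values lay inside the range of the lines, with a log2 fold change of -0.05 (limma adjusted p = 0.859, 95% interval -0.46 to 0.36). The interval of COL2 allows a change in either direction, as does that of COL1. COL2 has 729 exonic bases inside the locus of AT3G02370 and 688 inside that of AT3G02390, both on the opposite strand. AT3G02370 fell by 0.56 on the log2 scale (limma adjusted p = 0.0267). The locus of the non-coding RNA AT5G15845 likewise spans all 1698 exonic bases of COL1 on the opposite strand.

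**Figure D2:**
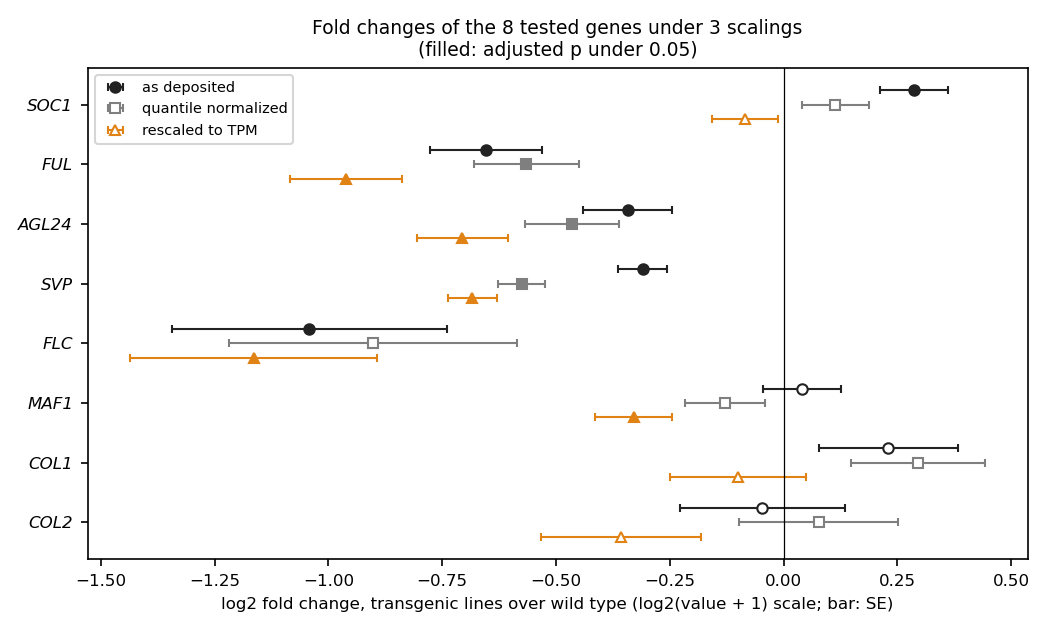
Log2 fold change of the 8 tested genes, transgenic lines over wild type, on the log2(value + 1) scale with the values as deposited (circles), quantile-normalized (squares) and as TPM (triangles). Bars are limma's SE and filled symbols have an adjusted p under 0.05. FUL, AGL24 and SVP are filled and left of 0 under all 3 scalings, and SOC1 is filled only as deposited.

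FPKM are scaled for transcript length, so levels can be ordered across genes, but the length used for each gene is not known. RefSeq gives MAF1 4480 exonic bases over its 11 transcripts, with a longest coding sequence of 672, and SOC1 1553 exonic bases. The order below therefore holds for the deposited values only. In the transgenic lines the order of mean FPKM was SVP (81.9), SOC1 (49.9), MAF1 (42.6), AGL24 (23.9), COL1 (7.84), COL2 (5.08) and FUL (4.62), with FT, FLC and CO all under 1. COL1 and COL2 overlapped, as did COL2 and FUL, and FT, FLC and CO overlapped in turn. In wild type the order was SVP (102), MAF1 (41.6), SOC1 (40.8), AGL24 (30.8), FUL (7.87), COL1 (6.49), COL2 (5.24), FLC (2.15), CO (0.784) and FT. There MAF1 and SOC1 overlapped, as did FUL and COL1 and COL1 and COL2. In the deposited values SOC1 thus lay above MAF1 in all 3 lines, while the wild-type ranges of these genes overlapped. That order of the 2 genes depends on the lengths used.

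A ratio of 2 genes within a sample does not depend on what the authors divided each library by. The SOC1/SVP ratio of FPKM was 0.624, 0.61 and 0.594 in transgenic lines 1 to 3, against 0.416, 0.363 and 0.424 in wild-type replicates 1 to 3. The groups did not overlap, with wild type lower. This follows from the deposited values, in which every line lay above wild type for SOC1 and below it for SVP. FUL/SVP was 0.0563, 0.0557 and 0.0573 in the lines, against 0.0856, 0.0805 and 0.0665 in wild type, again without overlap. The ratio of the MADS-box pair AGL24 and SVP overlapped between groups, at 0.293 ± 0.019 in the lines and 0.302 ± 0.031 in wild type (SD, n = 3 each). MAF1/SVP was 0.521 ± 0.029 in the lines and 0.41 ± 0.056 in wild type. SOC1/FUL had means of 10.8 ± 0.37 in the lines and 5.25 ± 0.988 in wild type. Its groups could not overlap either, since FUL also lay below wild type in every line. These ratios were chosen after the values were seen and carry no test.

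**Figure D3:**
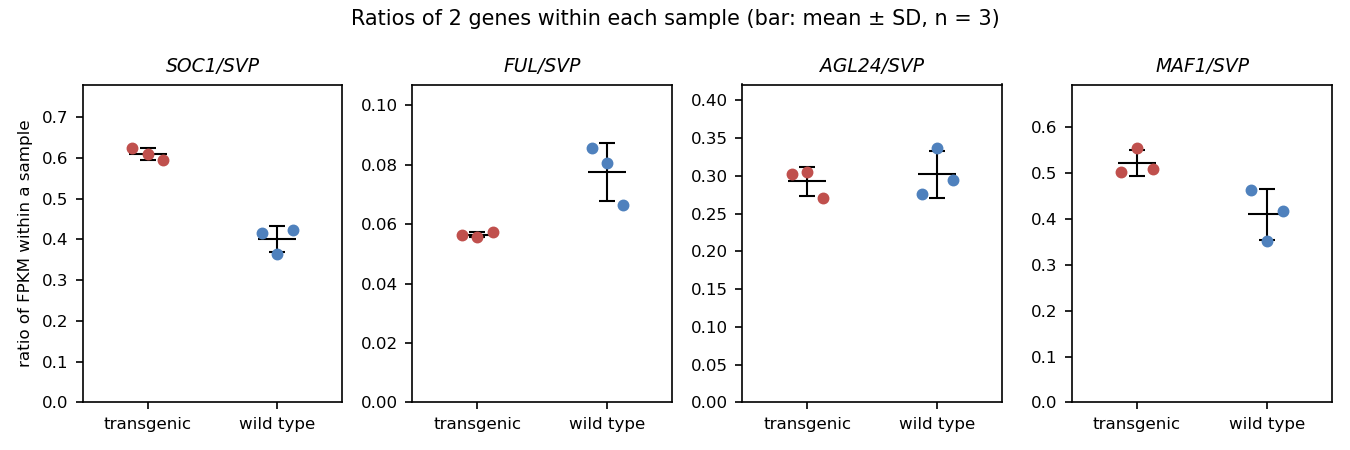
Ratio of the FPKM of 2 genes within each sample, for 3 transgenic lines (red) and 3 wild-type samples (blue), with black bars for the mean ± SD. SOC1/SVP and MAF1/SVP are higher in every line than in any wild-type sample, FUL/SVP is lower, and AGL24/SVP overlaps.

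The rest of the pathway was read from 11 lists of 120 genes, of which 114 were in the table and 104 were tested. Of these, 20 rose, 29 fell and 55 were not called, where 25.0% of all tested genes were higher and 15.7% lower. Those shares are also the background of the counts of single lists as deposited. The median log2 fold change of the 104 genes was -0.12, against 0.03 for all genes. The balance moved with scaling, for these genes as for all. Quantile-normalized values gave 13 higher and 33 lower, against 19.1% and 20.2% of all genes. TPM gave 8 higher and 65 lower, against 11.2% and 48.9% of all genes, which is also the background of the TPM counts of single lists. Without transgenic line 1 there were 13 higher and 26 lower. As deposited, the median log2 fold change was negative in 10 of the 11 lists. It was -0.44 for florigen relatives and partners, -0.32 for meristem identity and MADS-box promoters, -0.40 for the FLC clade and -0.37 for other floral repressors. It was -0.0037 for FLC activators, -0.03 for the autonomous pathway and -0.10 for vernalization and Polycomb genes. Photoperiod activators had a median of -0.08, photoperiod repressors of CO 0.15, other CONSTANS-like genes -0.24 and clock genes -0.12.

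Among partners and relatives of FT, 1 of 4 tested genes rose and 1 fell. With TPM 1 was higher and 3 lower, and 2 were lower without transgenic line 2, wild-type replicate 1 or wild-type replicate 2. FTIP1, which helps FT protein leave the companion cells, rose to 4.05 ± 0.571 FPKM in the transgenic lines, against 1.94 ± 0.153 FPKM in wild type (log2 fold change 0.78, SE 0.156, limma adjusted p = 0.00343). FDP, a relative of FD, fell to 1.16 ± 0.438 FPKM in the lines, against 3.95 ± 1.04 FPKM in wild type. FD, the bZIP partner of FT, had 3.73, 5.92 and 4.73 FPKM in the lines, against 5.17, 8.81 and 7.76 FPKM in wild type. It was not called (log2 fold change -0.50, limma adjusted p = 0.0812), though it passed without transgenic line 2 (0.0473) or wild-type replicate 1 (0.021) and after rescaling to TPM (0.00766). None of the 4 tested meristem identity and MADS-box promoter genes was called by limma with the values as deposited. At an unadjusted p under 0.05 the count was also 0, with quantile-normalized values it was 0, and with TPM 3 were lower. With no filter on low values 1 gene of this list was called lower, CAL, a relative of AP1 named here after its values were seen (log2 fold change -0.55, limma adjusted p = 0.00334). It had 0.0668, 0.155 and 0 FPKM in the lines, against 0.559, 0.513 and 0.653 FPKM in wild type. The most abundant of them, AGL42, had 3.5 ± 0.61 FPKM in the lines and 4.64 ± 0.948 FPKM in wild type (log2 fold change -0.32, limma adjusted p = 0.178).

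Of the 4 other FLC-clade repressors tested, 3 fell and 0 rose. With quantile normalization 2 were lower, and with TPM 4. MAF5 fell to 3.25 ± 0.297 FPKM in the transgenic lines, against 10.9 ± 1.45 FPKM in wild type (log2 fold change -1.48, SE 0.133, limma adjusted p = 2.3e-05). MAF2 fell to 34.5 ± 2.55 FPKM in the lines, against 43.4 ± 1.51 FPKM in wild type. MAF3 fell by 0.38 on the log2 scale (limma adjusted p = 0.0455), a call lost when transgenic line 1 or 2 or any 1 of the wild-type replicates was left out (adjusted p 0.0655 to 0.148). The MAF3 call was also lost with no filter on low values (limma adjusted p = 0.0764) and after quantile normalization (0.0604). MAF2 to MAF5 are tandem copies whose shared reads could have been split between them.

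Other repressors of FT and SOC1 were split, with 4 of 10 lower and 2 higher. TEM1 and TEM2, RAV-type repressors of FT, fell together. TEM1 had 42.1, 37.9 and 41.6 FPKM in the lines, against 86.9, 81.7 and 83.9 FPKM in wild type (log2 fold change -1.04, SE 0.063, limma adjusted p = 1.92e-06). TEM2 had 80.1, 83.6 and 72.3 FPKM in the lines, against 148, 154 and 151 FPKM in wild type (log2 fold change -0.93). AP2, a floral organ gene that also delays flowering, fell to 5.15 ± 1.03 FPKM in the lines, against 10.9 ± 1.65 FPKM in wild type. SNZ, of the same family and a repressor of FT, rose to 15.3 ± 1.48 FPKM in the lines, against 6.21 ± 0.738 FPKM in wild type (log2 fold change 1.18, SE 0.118, limma adjusted p = 4.72e-05). Quantile normalization gave 1 higher and 4 lower, and TPM 1 and 6. In this list 1 gene was higher without transgenic line 1 or 2 or wild-type replicate 1 or 2.

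Upstream of FLC, few genes were called, where 40.7% of all tested genes were called in either direction. Of 14 tested FLC activators 2 fell and 0 rose, of 7 autonomous pathway genes 1 fell and 0 rose, and of 11 vernalization and Polycomb genes 1 rose and 0 fell. SUF4, a zinc finger protein of the FRIGIDA complex, had a log2 fold change of -0.27 (limma adjusted p = 0.0147) and was no longer called without wild-type replicate 1 (0.0538) or 2 (0.0512). VIP5, of the PAF1 complex, had one of -0.40 (limma adjusted p = 0.022) and was no longer called without transgenic line 1 (0.0665) or 2 (0.0628) or wild-type replicate 1 (0.0781) or 2 (0.0717). FCA, an RNA-binding protein that lowers FLC, had one of -0.27 (limma adjusted p = 0.0484), a call lost when any 1 of the 6 samples was left out (0.0517 to 0.147) and with the title number as a block (0.0824). The FCA call was also lost with no filter on low values (limma adjusted p = 0.0617) and after quantile normalization (0.0513). VRN1, which keeps FLC silent after cold, had a log2 fold change of 0.28 (limma adjusted p = 0.0205). Its call was lost without transgenic line 1 (0.0684) or wild-type replicate 2 (0.0729) and after quantile normalization (0.0727). The sign turned, to -0.080, on the TPM scale. The most abundant autonomous and Polycomb-related genes, FVE and VEL1, had log2 fold changes of -0.03 (limma adjusted p = 0.794) and -0.17 (0.171). VEL1 was called lower with quantile-normalized values (limma adjusted p = 0.0326), with TPM (0.00127) and without wild-type replicate 3 (0.0485), and FVE with TPM (0.00283). The FLC activators had 1 lower without transgenic line 1 or 2 and 0 lower without wild-type replicate 1 or 2. The vernalization and Polycomb genes had 0 higher without transgenic line 1 or wild-type replicate 2, and 1 lower without transgenic line 1 or 3 or wild-type replicate 3. With TPM the 3 lists had 0 higher and 6, 6 and 7 lower, and with quantile-normalized values 0 higher and 3, 0 and 1 lower.

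**Figure D4:**
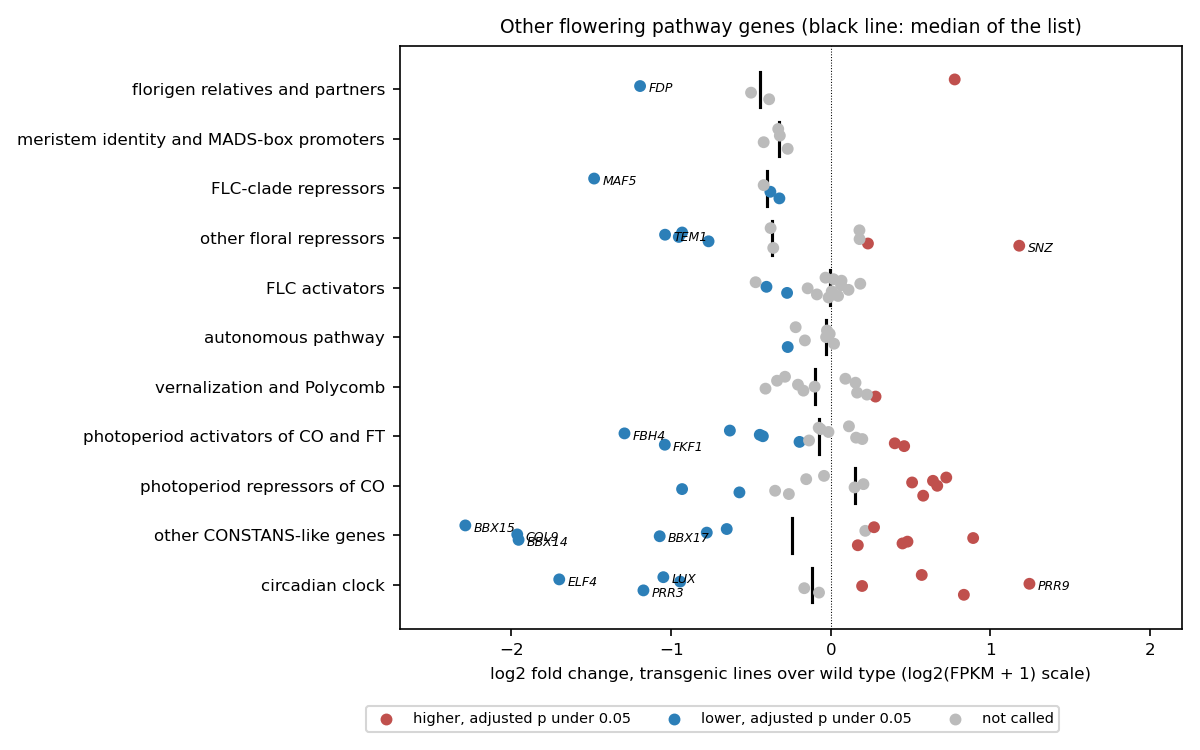
Log2 fold change (transgenic lines over wild type, log2(FPKM + 1) scale, values as deposited) of each tested gene of 11 flowering pathway lists, in red where higher and in blue where lower at an adjusted p under 0.05, and in grey where not called. Black lines are list medians and genes with a log2 fold change of at least 1 in size are named. The CONSTANS-like and clock lists hold points on both sides of 0, with the lowest, BBX15, at -2.29. The FLC activators have a median of -0.0037, with VIP5 at -0.40.

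The photoperiod genes around CO moved in both directions. Of 15 tested activators of CO and FT, 6 fell and 2 rose. The 2 that rose, GI and LKP2, are named after their values were seen. GI had a log2 fold change of 0.46 (limma adjusted p = 0.00156) and LKP2 one of 0.40 (0.0207). GI was called in 12 of 13 alternatives and LKP2 in 8 of 13, neither of them higher with TPM. LKP2 has 370 exonic bases inside the locus of a non-coding RNA on the opposite strand. FKF1, the blue-light F-box protein that removes repressors of CO, fell to 14.1 ± 1.64 FPKM in the lines, against 30.1 ± 2.51 FPKM in wild type (log2 fold change -1.04, SE 0.103, limma adjusted p = 4.47e-05). FBH4, a bHLH activator of CO, fell to 1.86 ± 0.631 FPKM in the lines, against 5.92 ± 0.747 FPKM in wild type. It has 681 exonic bases inside the locus of a non-coding RNA on the opposite strand. NF-YB3, a subunit of the complex through which CO binds FT, fell by 0.63 on the log2 scale (limma adjusted p = 0.00613). CRY2, a blue-light receptor that stabilises CO and the most abundant of the list, had a log2 fold change of -0.14 (limma adjusted p = 0.0971). Quantile-normalized values gave 2 higher and 7 lower in this list, and TPM gave 0 and 11. Without transgenic line 1, transgenic line 3 or wild-type replicate 3, 1 was higher. CRY2 was called lower with quantile-normalized values, TPM and median-of-ratios scaling (limma adjusted p = 0.0011, 0.000131 and 0.0341).

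Repressors of CO had 5 of 13 higher and 2 lower. PHYB, the red-light receptor that destabilises CO in the morning, rose to 23.0 ± 0.669 FPKM in the lines, against 13.6 ± 2.06 FPKM in wild type (log2 fold change 0.72, SE 0.11, limma adjusted p = 0.000657). SPA1, which with COP1 degrades CO in the dark, rose to 25.6 ± 0.643 FPKM in the lines, against 15.8 ± 1.75 FPKM in wild type. Locus AT1G69570 fell to 3.61 ± 0.589 FPKM in the lines, against 7.79 ± 1.2 FPKM in wild type. It has 1240 exonic bases inside the locus of a gene on the opposite strand. ZTL, an F-box protein of the clock, had 20.9 ± 0.78 FPKM in the lines and 21.5 ± 1.72 FPKM in wild type and was not called (limma adjusted p = 0.724). Quantile-normalized values gave 5 higher and 2 lower here, and TPM 3 and 5.

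Of the 12 other CONSTANS-like genes tested, 5 rose and 6 fell, where 40.7% of all tested genes were called in either direction. BBX15 fell to 18.5 ± 0.798 FPKM in the lines, against 94.1 ± 3.52 FPKM in wild type (log2 fold change -2.29, SE 0.065, limma adjusted p = 3.89e-08). BBX14 had 21.8, 18.9 and 21.2 FPKM in the lines, against 83.1, 85.1 and 80.0 FPKM in wild type, and COL9, a repressor of CO, had 4.07, 4.24 and 3.70 FPKM in the lines, against 17.3, 18.9 and 19.3 FPKM in wild type. COL5, the most abundant of the family at 352 ± 12.7 FPKM in the lines and 252 ± 5.79 FPKM in wild type, rose by 0.48 on the log2 scale. That rise was not called after quantile normalization (limma adjusted p = 0.144) or rescaling to TPM (0.0741). Both quantile-normalized values and TPM gave 1 higher and 7 lower in this list. Without transgenic line 1 there were 3 higher. BBX14 has 329 exonic bases inside the locus of LBD42 on the opposite strand.

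RNA of CO, FKF1 and the clock genes is known to change with the time of day, and the hour of harvest is not given in the labels. Of 10 tested clock genes 4 rose and 4 fell, and 2 were higher without wild-type replicate 2. Quantile-normalized values gave 3 higher and 6 lower, and TPM 2 and 7. ELF4, of the evening complex, fell to 10.5 ± 2.19 FPKM in the lines, against 36.2 ± 3.66 FPKM in wild type, and PRR3 fell to 8.66 ± 0.394 FPKM in the lines, against 20.9 ± 3.33 FPKM in wild type. ELF3 and LUX, the partners of ELF4 in that complex and chosen after their values were seen, fell by 0.94 and 1.05 on the log2 scale. LUX has 1507 exonic bases inside the locus of AT3G46650 on the opposite strand. PRR9, a morning-phased repressor, rose to 7.78 ± 0.645 FPKM in the lines, against 2.74 ± 0.629 FPKM in wild type. CCA1 and RVE8, also named after their values were seen, rose by 0.83 and 0.57 on the log2 scale (limma adjusted p = 0.000358 and 0.0441). CCA1 was called in 13 of 13 alternatives and RVE8 in 4 of 12. TOC1 and PRR5 were not called as deposited (limma adjusted p = 0.442 and 0.0872). PRR7, the most abundant clock gene, had a log2 fold change of 0.20 (limma adjusted p = 0.0262). It was -0.085 after quantile normalization and -0.18 on the TPM scale, where it was called lower (limma adjusted p = 0.028). The rise was not called with median-of-ratios scaling (0.0588), and the call was lost without transgenic line 2 (0.094), wild-type replicate 2 (0.0969) or wild-type replicate 3 (0.0545). The part of harvest time in the values of CO and its regulators was not tested.

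Several tissue markers moved with the groups as well, where 25.0% of all tested genes were called higher and 15.7% lower. All 6 leaf markers were high and rose in the lines, with summed FPKM of 46601 to 47756, against 27991 to 29168 in wild type, and 2 of them were called higher after quantile normalization. The median log2 fold change was 0.77 for the leaf list, 0.07 for the phloem list and -0.46 for the apex and floral list. Of the 6 phloem markers, summed to 237 to 247 FPKM in the lines and 187 to 197 FPKM in wild type, 2 rose and 2 fell. SUC2 and AHA3, both of companion cells, rose by 0.76 each on the log2 scale (limma adjusted p = 3.08e-06 and 4.79e-05), and the sugar exporters SWEET11 and SWEET12 fell by 0.47 and 0.82. APL and SEOR1, of phloem identity and sieve elements, had log2 fold changes of 0.05 and 0.09 and were not called (limma adjusted p = 0.81 and 0.422). On the TPM scale both turned, to -0.29 and -0.27, and SEOR1 was called lower there (limma adjusted p = 0.0219). The shoot apex and floral organ markers summed to 20.2 to 25.5 FPKM in the lines and 46.7 to 49.6 FPKM in wild type, with 2 of 7 tested lower and 0 higher. STM and KNAT1 made up most of these sums. With TPM 3 of this list were lower, against 48.9% of all genes. WUS was listed at 0 in every sample and CLV3 in all but transgenic line 3. STM fell to 9.87 ± 0.322 FPKM in the lines, against 27.4 ± 1.26 FPKM in wild type, and KNAT1 fell to 4.8 ± 1.31 FPKM in the lines, against 9.83 ± 0.654 FPKM in wild type. The 5 other tested genes, all of floral organs, were not called as deposited. AP3, PI, SEP1 and SEP3 overlapped between groups (limma adjusted p = 0.882, 0.257, 0.99 and 0.496). SEP2 was lower in every line (limma adjusted p = 0.126). FUL, AGL24 and SOC1 are also active at the shoot apex, and the part of these tissues in their values was not tested.

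Likeness of pattern over the 6 samples was measured as Pearson's r of log2(FPKM + 1), given as a description. The genes most like SOC1 were RHC2A (r = 0.999), TDX (r = 0.997) and DBR1 (r = 0.996), and 260 genes had an r of at least 0.95. For FLC they were AT3G03990 (r = 0.996), AT5G10570 (r = 0.994) and AT5G50180 (r = 0.993), and 114 genes reached 0.95. All 6 points share 2 groups and the same scaling, and no p is given.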

How the data were processed

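RNA was measured in 3 transgenic and 3 wild-type leaf samples. Per the labels' protocols, polyadenylated RNA was copied with random hexamers and read on a HiSeq instrument. The FPKM were made and deposited by the authors as 1 column for each sample. TopHat2, DESeq and TAIR10 are named in the submitters' processing notes, without version or role. Not given in the sources used here are the program behind the FPKM, the annotation, the strand setting and the divisor, and the depth is unknown.

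The 10 members, the lists and the choice of tests were made with earlier results of these data known. Limma 3.58.1 in R 4.3.3 (mean-variance trend, no covariate) was fitted to log2(FPKM + 1) of all 17093 genes whose mean reached 1 FPKM, with Benjamini-Hochberg adjustment over them, and tested on simulated data. Fold changes are transgenic over wild type and understate those of low genes. Named were the members, up to 3 called genes with the largest absolute fold change and the most abundant gene of each pathway list, and tissue markers. Some pathway genes were also named after their values were seen, as stated where they appear. Alternatives were a pseudocount of 0.1, no filter, a mean of at least 5 FPKM, quantile normalization, TPM, median-of-ratios factors, each sample left out, and the title number as a block. 

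Coordinates, overlaps and sequences are from RefSeq's TAIR10.1 genome and annotation, read with pysam 0.24.0 and aligned with Biopython 1.88. An overlap counts the exonic bases of the named gene inside the whole locus of the other gene, introns included. RefSeq gave the symbol of 140 of 152 list genes, and the others are called by RefSeq's own name or locus. Of the 152, 6 were not analysed here.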

Additional observations from a re-analysis of the deposited data

How the results depend on the processing

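The 4 falls (FLC included) and 1 rise among the members became 3 falls and 0 rises after quantile normalization and 5 falls and 0 rises after rescaling to TPM. FLC was among the 5 falls with TPM and not among the 3 after quantile normalization. Leaving out each sample in turn gave 2 to 4 falls and 1 rise each time, with FLC called in 3 of these 6 fits. FUL and SVP kept their calls in all alternatives. Over all genes, calls were 1907 higher and 8363 lower after rescaling to TPM, and leaving out a sample gave 3786 to 3945 higher and 2038 to 2492 lower. Pathway genes were 13 higher after quantile normalization, 8 higher and 65 lower after rescaling to TPM, and 13 to 17 higher and 24 to 29 lower when a sample was left out. Same-numbered samples did not deviate together (correlations of -0.035, 0.049 and -0.023 for numbers 1, 2 and 3), so the numbers were not taken as pairs. With the title number as a replicate block, 4155 genes were higher and 2551 lower, members stayed at 1 higher and 4 lower, and pathway genes were 17 and 27. That block ended the call of FCA (adjusted p = 0.0824) and gave FD one (0.021). No member, and no other pathway gene named by the rule above, changed its call.

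Directions turned, on the log2 scale, with TPM for SOC1 (-0.084), MAF1 (-0.33), COL1 (-0.10), VRN1 (-0.080), PRR7 (-0.18), APL (-0.29) and SEOR1 (-0.27), and with quantile normalization for MAF1 (-0.13), COL2 (0.077) and PRR7 (-0.085). Leaving out a sample gave -0.052 (without wild-type replicate 2) to 0.10 for MAF1, -0.20 to 0.092 (without transgenic line 2) for COL2, -0.064 to 0.017 for FVE, -0.096 to 0.014 for ZTL and -0.081 to 0.15 for APL. COL2 also turned without wild-type replicate 1 (0.073). TPM lowers the fold changes by its construction, since summed FPKM were higher in the transgenic lines than in wild type, and for quantile normalization the cause was not tested. Of 658 fold changes recomputed for single genes, 586 kept direction and side of the threshold. With the direction kept, 42 lost a call and 13 gained one. The other 17 turned, with or without a change of call. Without read counts the depth behind FT, FLC and CO is unknown, and 3 samples a group limit what can be told apart.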
